A study of Danio rerio with 4 samples.

Results

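The liver supplies the blood with carrier proteins, protease inhibitors and hormones or their precursors. Described here are 8 of the genes that code for them, in zebrafish (Danio rerio) at 3 days post fertilization. They were chosen by symbol: ahsg1, fetub, tfa, ambp, ttr, rbp4, agt and hamp. The deposited table held all 8 of them among 19924 features, of which 17610 are Ensembl genes and 2314 are assembled transcript models, and all 8 passed the filter on low counts. RNA-seq was done on 4 poly(A) libraries, 2 from fish that carry mutations in both cpa1 and cpa5 and 2 from their siblings. All fish came from 1 pair of cpa1+/-cpa5+/- parents. Heads were used for genotyping and tails for RNA, and 500 ng of total RNA went into a library. The sibling libraries carry the genotype label WT, but the labels do not say whether those fish were heterozygous at either gene, how the mutations were made or how many fish a library holds. The p-values below therefore measure only the spread between libraries, which may be technical.

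Most of these proteins are made by hepatocytes and released into the plasma, and in zebrafish some of the genes, rbp4 among them, are also expressed in the yolk syncytial layer, which passes yolk nutrients to the embryo. Fetuins are glycoproteins of the cystatin superfamily. In mammals fetuin-A, coded by AHSG, keeps calcium phosphate soluble, and in the mouse fetuin-B inhibits a protease that hardens the egg coat. Transferrin (tfa) carries iron, and hepcidin (hamp) is the peptide hormone that limits iron release by binding the exporter ferroportin. The ambp transcript codes for a precursor that is cut into alpha-1-microglobulin, a small carrier, and bikunin, a protease inhibitor that is joined to the heavy chains of inter-alpha-trypsin inhibitor. Transthyretin (ttr) carries thyroid hormone and rbp4 carries retinol. Angiotensinogen (agt) is the precursor from which renin cuts the blood pressure hormone angiotensin.

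The libraries held 24769258 and 35343524 counts in double knockout replicates 3 and 4, and 25623442 and 32248878 counts in sibling replicates 3 and 4. Counts of the targeted gene cpa5 were 19 and 15 in the double knockouts, against 2079 and 397 in the siblings, so no library went against its label. The gene cpa1 was not analysed here. Libraries with the same replicate number were more alike than libraries of the same genotype: Pearson's r of log2 CPM across features, which are not independent replicates, was 0.965 for the replicate 3 pair and 0.978 for the replicate 4 pair, against 0.932 for the double knockout pair and 0.923 for the sibling pair. The labels do not say what a replicate number marks. CPM stands below for counts scaled to library size with edgeR's TMM factors, and fold changes are log2 of double knockout over sibling with their standard error from edgeR's quasi-likelihood test. Adjusted p-values are Benjamini-Hochberg values over all 19924 features, with a threshold of 0.05.

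The 8 genes spanned a wide range of levels. On the authors' FPKM scale, which corrects for feature length, rbp4 was the most abundant at 1173 ± 163 FPKM in double knockouts and 1383 ± 399 FPKM in siblings (SD, n = 2 each). It was followed by tfa at 440 ± 133 and 699 ± 252 FPKM in double knockouts and siblings, and by fetub at 113 ± 34.3 FPKM in double knockouts and 229.5 ± 9.92 FPKM in siblings. In all 4 libraries rbp4 was above tfa, tfa above fetub and fetub above ambp. The next pair did not differ beyond the spread, since ambp (26.5 ± 10.7 FPKM in double knockouts, 41.2 ± 9.68 in siblings) was above agt (24.6 ± 13.6 FPKM in double knockouts, 37.6 ± 11.4 in siblings) in 2 of the 4 libraries. The 3 lowest were hamp at 3.05 ± 1.8 and 4.52 ± 0.798 FPKM in double knockouts and siblings, ttr at 1.14 ± 1.39 FPKM in double knockouts and 2.6 ± 1.67 in siblings, and ahsg1 at 0.379 ± 0.0806 FPKM in double knockouts and 1.24 ± 0.365 in siblings. hamp was above ttr in all 4 libraries, and ttr was above ahsg1 in 3 of 4.

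Together the 8 genes took 0.27% and 0.341% of the counts in double knockout replicates 3 and 4, with Wilson 95% intervals of 0.268% to 0.272% and 0.339% to 0.343%. In the matching sibling libraries they took 0.433% (0.431% to 0.436%) and 0.481% (0.479% to 0.484%). These intervals cover counting error only. Summed CPM was 2581 and 3494 in the double knockouts and 4328 and 4924 in the siblings, so the groups did not overlap. 3 genes held nearly all of this sum: tfa, rbp4 and fetub made up 34.6%, 50.1% and 12.7% of the members' counts in double knockout replicate 3, and 33.2%, 42.5% and 20.1% in sibling replicate 3. In replicate 4 tfa led instead, with tfa, rbp4 and fetub at 43.3%, 36.2% and 16.1% in the double knockout and 50.3%, 26.6% and 19.5% in the sibling.

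**Figure D1:**
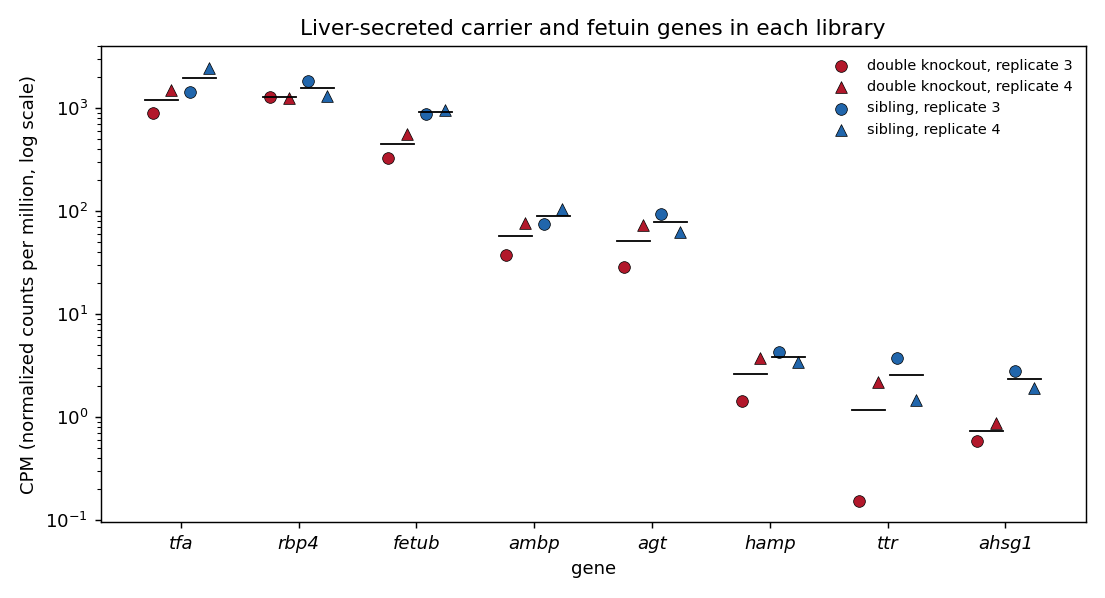
CPM (log axis) of the 8 genes in each library, double knockouts in red left of siblings in blue, with circles for replicate 3, triangles for replicate 4 and a bar at the mean of each group (n = 2). The level of ttr in double knockout replicate 3, at 0.154 CPM, is far below its other 3 libraries, and fetub and ahsg1 have both double knockouts below both siblings.

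No gene of the 8 passed the adjusted test between genotypes, and neither did any other feature (0.0% of 19924 called by edgeR). At an unadjusted p below 0.05 edgeR listed 100 features (0.502%), of which 63 were lower in the double knockouts (0.316%), and ahsg1 and fetub were among them. DESeq2 called 19 features (0.0954%) and none of the 8. The targeted gene cpa5, with a log2 fold change of -6.34 ± 1.17 in edgeR, was called by DESeq2 (adjusted p = 1.85e-10) but not by edgeR. With 2 libraries per group, not passing the edgeR test therefore does not show that a level was unchanged. The fitted log2 fold changes of the 8 genes were all below 0, from -1.68 to -0.30 with a median of -0.68. Over all features 52.1% were below 0 and the median was -0.01. In 3 of the 8 genes (ahsg1, fetub and rbp4) both double knockout libraries lay below both sibling libraries in CPM, as 9.01% of all features did. On library totals without TMM factors, or in the deposited FPKM, the 3 genes were ahsg1, fetub and ambp, and rbp4 overlapped (7.5% and 7.25% of all features lay below). In 0 of the 8 did both lie above, as 8.72% of all features did. In 5 of 8 the double knockout lay below the sibling within both replicate numbers, as 26.4% of all features did. In bulk tissue, less of a tissue that expresses these genes and less RNA per cell of it cannot be told apart. Which tissues of the tail samples gave the RNA of the 8 genes was not tested.

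Both fetuin genes had lower values in each double knockout library than in either sibling library, without passing the adjusted test. fetub (ENSDARG00000053973) was read at 8465 and 19412 counts in double knockout replicates 3 and 4, and at 22352 and 30315 counts in sibling replicates 3 and 4. In CPM this is 326 and 562.5 in the double knockouts and 871.5 and 962 in the siblings. The higher double knockout library thus lay below the lower sibling library, and the siblings differed from each other by 1.1-fold and the double knockouts by 1.72-fold. The double knockout mean was 48.5% of the sibling mean, with a log2 fold change of -1.04 ± 0.31 (adjusted p = 1 by edgeR's quasi-likelihood test). The authors' deposited table lists -1.04 with an unadjusted p of 0.00346 and an adjusted p of 1 for fetub, and marks it as down.

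ahsg1 (ENSDARG00000026764), the second fetuin gene, was much rarer, with a mean FPKM 212-fold below that of fetub over the 4 libraries. Double knockout replicates 3 and 4 had 15 and 30 counts of it, and sibling replicates 3 and 4 had 72 and 60. The exact Poisson 95% intervals of these counts were 8.4 to 24.7 and 20.2 to 42.8 in the double knockouts and 56.3 to 90.7 and 45.8 to 77.2 in the siblings. Its CPM of 0.578 and 0.869 in the double knockouts did not overlap with 2.81 and 1.9 in the siblings. The mean was 30.7% of the sibling mean and the log2 fold change was -1.68 ± 0.41 (adjusted p = 1 by edgeR's quasi-likelihood test). The authors' deposited table marks ahsg1 as down as well, with a log2 fold change of -1.69, an unadjusted p of 0.0055 and an adjusted p of 1. In the RefSeq gene table of the GRCz12tu assembly ahsg1 and fetub lie next to each other with no coding gene between them, and in the deposited table both match the same protein family, the cystatin domain.

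tfa and ambp had lower values in the double knockout within each replicate number, and higher values in replicate 4 within each genotype. tfa (ENSDARG00000016771) was at 893 and 1511 CPM in double knockout replicates 3 and 4, and at 1438 and 2478 CPM in sibling replicates 3 and 4. The groups overlapped, because double knockout replicate 4 lay above sibling replicate 3, but within each replicate number the double knockout was lower by nearly the same amount, with log2 differences of -0.69 (replicate 3) and -0.71 (replicate 4). The log2 fold change of tfa was -0.70 ± 0.39 (adjusted p = 1 by edgeR).

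ambp (ENSDARG00000004296) was at 37.3 and 76.7 CPM in double knockout replicates 3 and 4 and at 74.9 and 105 CPM in sibling replicates 3 and 4. Double knockout replicate 4 was close to sibling replicate 3, so the groups overlapped on this scale, though not on library totals or FPKM. Within replicate numbers the double knockouts lay below the siblings by 2.01-fold in replicate 3 and 1.365-fold in replicate 4, and the log2 fold change was -0.66 ± 0.41 (adjusted p = 1 by edgeR). Of all pairs of members other than agt and hamp, tfa and ambp had the most similar course over the 4 libraries, with a distance of 0.292 in centred log2 CPM.

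ttr, agt and hamp had their lowest values in double knockout replicate 3, while double knockout replicate 4 was above sibling replicate 4. ttr (ENSDARG00000037191) was read at 4 and 75 counts in double knockout replicates 3 and 4, and at 95 and 46 counts in sibling replicates 3 and 4. The 4 counts have an exact Poisson 95% interval of 1.09 to 10.2, which does not reach the 33.7 to 61.4 of the lower sibling library. In CPM, sibling replicate 3 was 24-fold above double knockout replicate 3. By contrast, double knockout replicate 4, at 2.17 CPM, was above sibling replicate 4 at 1.46 CPM. The Poisson 95% intervals of these replicate 4 counts, 59 to 94 and 33.7 to 61.4, overlapped.

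The log2 fold change of ttr was -1.11 ± 1.16 (adjusted p = 1 by edgeR). Without double knockout replicate 3 it was -0.24, and without double knockout replicate 4 it was -4.01. With 3 libraries the replicate numbers are no longer balanced, so such a value mixes genotype with replicate number.

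agt (ENSDARG00000016412) was at 28.7 and 73.2 CPM in double knockout replicates 3 and 4, and at 93.7 and 63.1 CPM in sibling replicates 3 and 4. The groups overlapped, with double knockout replicate 3 alone below the rest. Double knockout minus sibling on the log2 scale was -1.70 in replicate 3 and 0.22 in replicate 4, and the fold change was -0.62 ± 0.51 (adjusted p = 1 by edgeR), or -0.10 without double knockout replicate 3.

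hamp (ENSDARG00000102175) had 37 and 130 counts in double knockout replicates 3 and 4, against 109 and 107 counts in sibling replicates 3 and 4. Its CPM of 1.43 and 3.77 in the double knockouts overlapped with 4.25 and 3.4 in the siblings. Double knockout minus sibling on the log2 scale was -1.57 in replicate 3 and 0.15 in replicate 4, and the fold change was -0.55 ± 0.52 (adjusted p = 1 by edgeR), or -0.02 without double knockout replicate 3. Zebrafish hepcidin genes are near copies of each other and how shared reads were counted is not stated in the labels or headers, so the hamp count is uncertain. agt and hamp had the most similar course of any pair of members, at a distance of 0.186.

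rbp4 (ENSDARG00000101199) varied least. It was at 1293 and 1263 CPM in double knockout replicates 3 and 4, and at 1839 and 1310 CPM in sibling replicates 3 and 4. Both double knockouts lay below both siblings on this scale, but the lowest sibling was only 1.01-fold above the highest double knockout. Without TMM factors the groups overlapped, with 1354 and 1233 counts per library total (scaled like CPM) in the double knockouts and 1841 and 1280 in the siblings, and they also overlapped in the deposited FPKM. The log2 fold change was -0.30 ± 0.22 (adjusted p = 1 by edgeR), and -0.04 without sibling replicate 3. Its course over the libraries was closest to that of hamp, at a distance of 1.07, and farthest from that of ttr, at 2.87, although the proteins of rbp4 and ttr travel as a complex in mammalian plasma.

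**Figure D2:**
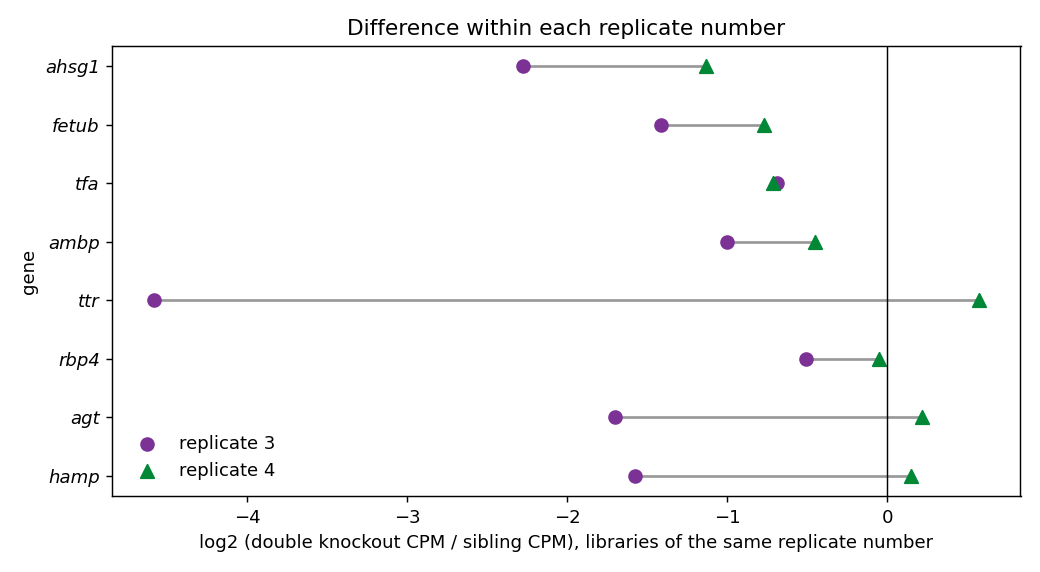
Log2 of double knockout over sibling CPM for each gene, between the replicate 3 libraries (purple circles) and the replicate 4 libraries (green triangles), 1 library per genotype and point. ahsg1, fetub, tfa and ambp are below 0 in both, rbp4 is at -0.51 and -0.05, and ttr, agt and hamp are below -1.5 in replicate 3 and above 0 in replicate 4.

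Between the replicate 3 libraries 6 of the 8 genes were over 2-fold lower in the double knockout (2.12% of all features), and between the replicate 4 libraries 1 of 8 was, ahsg1 (0.763% of all features). The median difference of the 8 genes was -1.50 in replicate 3 and -0.25 in replicate 4, against -0.02 and 0.00 over all features. Whether the genotype difference itself differs between the replicate numbers cannot be tested with 1 library of each kind.

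Between replicate numbers, with genotype as a second term, 2 of the 8 genes were called higher in replicate 4 (6.99% of all features were called higher and 15.1% in either direction). tfa rose by 0.77 ± 0.09 on the log2 scale (edgeR adjusted p = 0.0128), with 1511 and 2478 CPM in replicate 4 of double knockouts and siblings, against 893 and 1438 CPM in replicate 3. ambp rose by 0.76 ± 0.16 (edgeR adjusted p = 0.0408), also in both genotypes. The other 6 genes were not called, with differences from -0.26 ± 0.14 for rbp4 (edgeR adjusted p = 0.247) to 0.50 ± 1.13 for ttr (adjusted p = 0.79). ttr, agt, hamp and ahsg1 were lower in replicate 4 than in replicate 3 of siblings (by -1.34, -0.57, -0.32 and -0.56) and higher in replicate 4 than in replicate 3 of double knockouts (by 3.82, 1.35, 1.40 and 0.59). This fit has 1 residual degree of freedom.

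**Figure D3:**
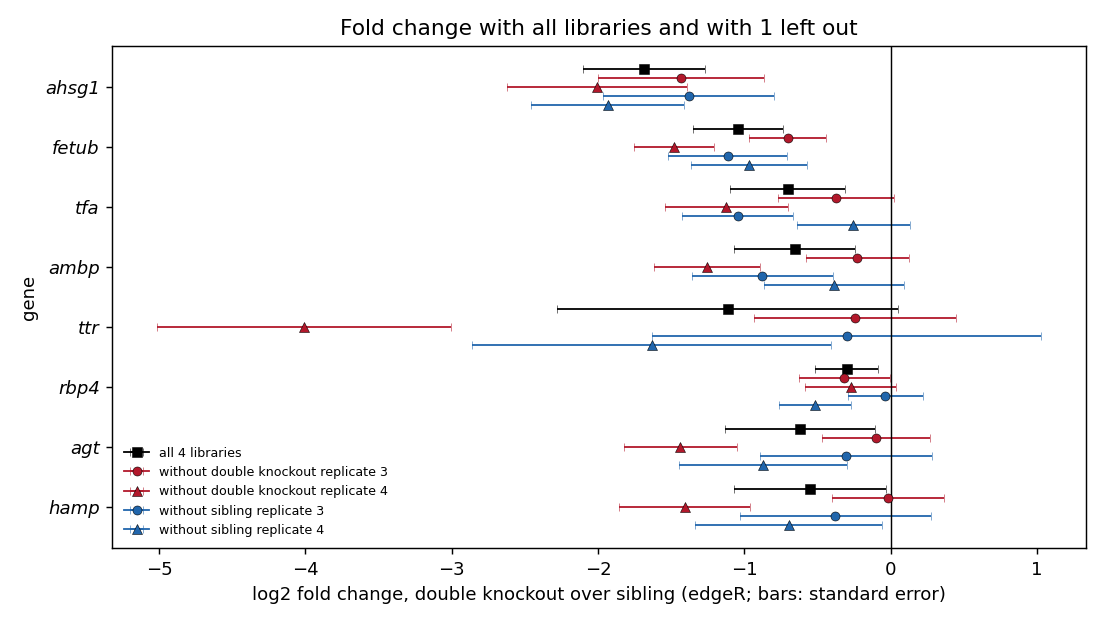
Log2 fold change of double knockout over sibling from edgeR with its standard error (bars), with all 4 libraries (black squares) and with 1 library left out (red for a double knockout, blue for a sibling library; circles for replicate 3, triangles for replicate 4). All 40 values are below 0, but the fits of a gene share libraries. ttr reaches -4.01 without double knockout replicate 4, and ttr, agt and hamp lie between -0.24 and -0.02 without double knockout replicate 3.

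Double knockout replicate 3 was also low in several hepatocyte genes whose products stay in the cell. The liver fatty acid binding protein gene fabp10a, a defining hepatocyte marker in zebrafish, had 10 and 267 counts in double knockout replicates 3 and 4 and 601 and 257 counts in sibling replicates 3 and 4. The urate oxidase gene uox was at 1.58 and 22.5 CPM in the double knockouts and 16.8 and 21 CPM in the siblings, and hpda, a tyrosine breakdown enzyme gene, at 0.771 and 10.6 CPM in the double knockouts and 9.79 and 10.6 CPM in the siblings. The bile salt exporter gene abcb11b was at 0 and 71 counts in double knockout replicates 3 and 4, against 113 and 60 counts in the siblings, and 0 counts have an exact Poisson 95% upper limit of 3.69. It was the only one of the 19 measured hepatocyte markers with a 0. Of these 19 markers 17 had a fold change below 0 and none was called, with a median of -0.79 in replicate 3 and 0.03 in replicate 4.

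The markers did not all follow fabp10a. 4 of the 19 were over 8-fold lower in double knockout than in sibling replicate 3, as 65 of all 19924 features were. In 6 of the 19 both double knockout libraries lay below both sibling libraries in CPM, as 9.01% of all features did. In 0 of the 19 did both lie above, as 8.72% of all features did. The phenylalanine hydroxylase gene pah was instead at 125 and 103 CPM in double knockout replicates 3 and 4 and at 135 and 86.5 CPM in the siblings. The marker tdo2a was highest in double knockout replicate 3, at 17.2 and 2.58 CPM in the double knockouts and 16.1 and 1.21 CPM in the siblings. Between replicate numbers, edgeR called 5 of the 19 lower in replicate 4 and 1 higher. Over all 19924 features it called 1625 lower and 1393 higher. The summed level of the 19 markers was 2490 and 5108 CPM in the double knockouts and 4138 and 6211 CPM in the siblings. The methyl transfer enzyme gene bhmt made up 54.2% and 69.6% of it in the double knockouts and 49.2% and 72.8% in the siblings. bhmt alone was at 1350 and 3557 CPM in the double knockouts and 2034 and 4521 CPM in the siblings. Its course was unlike that of fabp10a, so the sum does not stand for the hepatocyte markers as a set. The 8 measured markers of the yolk syncytial layer summed to 4947 and 8700 CPM in the double knockouts and 7865 and 11170 CPM in the siblings. Most of this was apobb.1, at 3346 and 5760 CPM in the double knockouts and 5239 and 7695 CPM in the siblings. That gene is also in the list of other liver plasma proteins below. Of the 8 fold changes 8 were below 0, with none of the markers at 0 counts. Their median was -0.66 in replicate 3 and -0.22 in replicate 4. The part of these markers in the result was not tested.

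**Figure D4:**
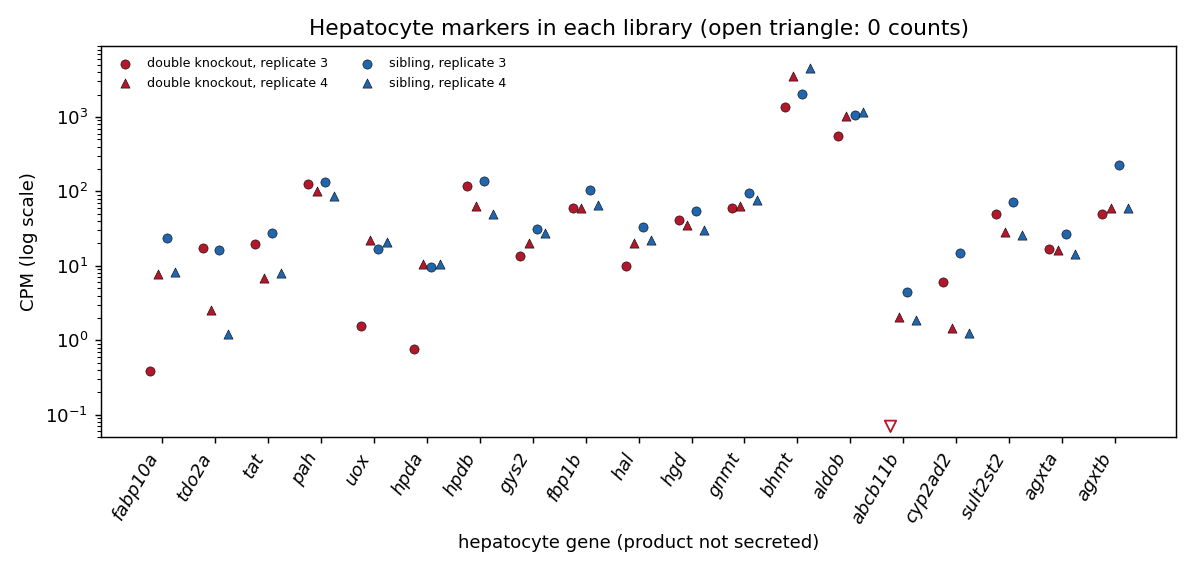
CPM (log axis) of 19 hepatocyte genes whose products are not secreted, in each library (double knockouts red, siblings blue, circles replicate 3, triangles replicate 4; an open triangle stands for 0 counts). fabp10a, uox, hpda and abcb11b are lowest in double knockout replicate 3, while pah ranges from 86.5 to 135 CPM over the 4 libraries.

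Markers of other tissues also differed between libraries. Between the replicate 3 libraries the medians were -1.59 for 11 exocrine pancreas genes, -1.04 for 7 red cell genes, -0.70 for 8 intestine genes and -3.02 for 5 heart muscle genes, against -0.39, -0.03, 0.14 and 0.08 between the replicate 4 libraries. The summed heart muscle level was 2.2 CPM in double knockout and 5.73 CPM in sibling replicate 3, against 67 and 64.9 CPM in replicate 4 of double knockouts and siblings. The heart muscle median in replicate 3 rests on low counts. In double knockout and sibling they were 2 and 18 for myl7, 3 and 24 for nppa and 2 and 26 for cmlc1. Summed exocrine pancreas levels were 387 and 89.4 CPM in double knockout replicates 3 and 4, and 1080 and 115 CPM in the siblings. Summed intestine levels were 744 and 191 CPM in the double knockouts, and 1106 and 166 CPM in the siblings. For both lists double knockout replicate 3 thus lay above both replicate 4 libraries. Skeletal muscle, epidermis, pronephros, neuron and macrophage markers had replicate 3 medians of -0.01, -0.09, -0.22, 0.29 and 0.19. The part of these tissues in the levels of the 8 genes was not tested.

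Genes that act with the members were compared through lists of partners. The heavy chains that bind bikunin and the fetuin relatives were below 0 in 5 of 6 measured genes, with none called. Their fold changes ran from -1.86 to 0.32 with a median of -0.58. In edgeR 1 of the 6 had an unadjusted p below 0.05, as 0.502% of all features did. itih2, an inter-alpha-trypsin heavy chain gene, was at 82.6 and 162 CPM in double knockout replicates 3 and 4 and 141 and 218 CPM in the siblings, and itih3a and kng1, the kininogen gene, had fold changes of -0.60 ± 0.40 and -0.68 ± 0.42. The heavy chain gene itih5 was at 0.32 ± 0.57. itih2, itih3a, kng1 and itih5 were also called higher in replicate 4 than in replicate 3, as tfa and ambp and 6.99% of all features were (edgeR adjusted p = 0.0204, 0.0279, 0.0221 and 0.0206).

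Iron handling partners of transferrin and hepcidin were below 0 in 18 of 21 measured genes, with a median of -0.18 and none called. Among the most abundant, the ferritin genes fth1a and fthl27 had fold changes of -0.18 ± 0.18 each. The copper ferroxidase gene cp, whose product is itself a plasma protein, was at -0.62 ± 0.53. The ferroportin gene slc40a1, the target of hepcidin, was at 127 and 100 CPM in double knockout replicates 3 and 4 and at 127.5 and 107 CPM in the siblings (-0.05 ± 0.21).

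Retinoid and thyroid hormone partners were below 0 in 19 of 29 genes with a median of -0.05, and renin-angiotensin partners in 4 of 8 with a median of 0.00. No gene of either list was called. The retinoic acid binding protein genes crabp2a and crabp2b had fold changes of 0.17 ± 0.19 and 0.15 ± 0.38, the carotenoid oxygenase gene bco1 was at -0.15 ± 0.47 and the retinoic acid synthesis gene aldh1a2 at -0.09 ± 0.21. The angiotensin-converting enzyme gene ace was at 33.7 and 24.8 CPM in double knockout replicates 3 and 4 and at 38.8 and 24 CPM in siblings (-0.10 ± 0.31). The membrane peptidase gene lnpep and the renin receptor gene atp6ap2 were at 0.12 ± 0.21 and 0.00 ± 0.15.

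Of 28 other plasma protein genes of the liver all 28 were below 0, also within both replicate numbers, with a median of -0.60, and none was called. The most abundant were apobb.1, apoa2 and apoa1a, which code for lipoprotein components, and the complement gene c3a.1, with fold changes of -0.51 ± 0.35, -0.54 ± 0.34, -0.54 ± 0.54 and -0.38 ± 0.80. Of these 28 genes 12 were over 2-fold lower in double knockout than in sibling replicate 3 (2.12% of all features). Between the replicate 4 libraries 1 was (0.763% of all features). A rise in replicate 4 was also common among these genes. Between replicate numbers edgeR called 17 of the 28 higher in replicate 4 and 1 lower, against 6.99% of all features called higher. Of the 22 liver transcription factor genes, edgeR called 6 higher and 2 lower. Liver transcription factor genes were below 0 in 21 of 22, with a smaller median of -0.32 and none called. The small heterodimer partner gene nr0b2a was at 31.6 and 60.9 CPM in double knockouts and 61.6 and 91 CPM in siblings (-0.72 ± 0.40), gata5 was at -0.63 ± 0.35, and cebpa and cebpb were at -0.18 ± 0.27 and -0.23 ± 0.18.

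**Figure D5:**
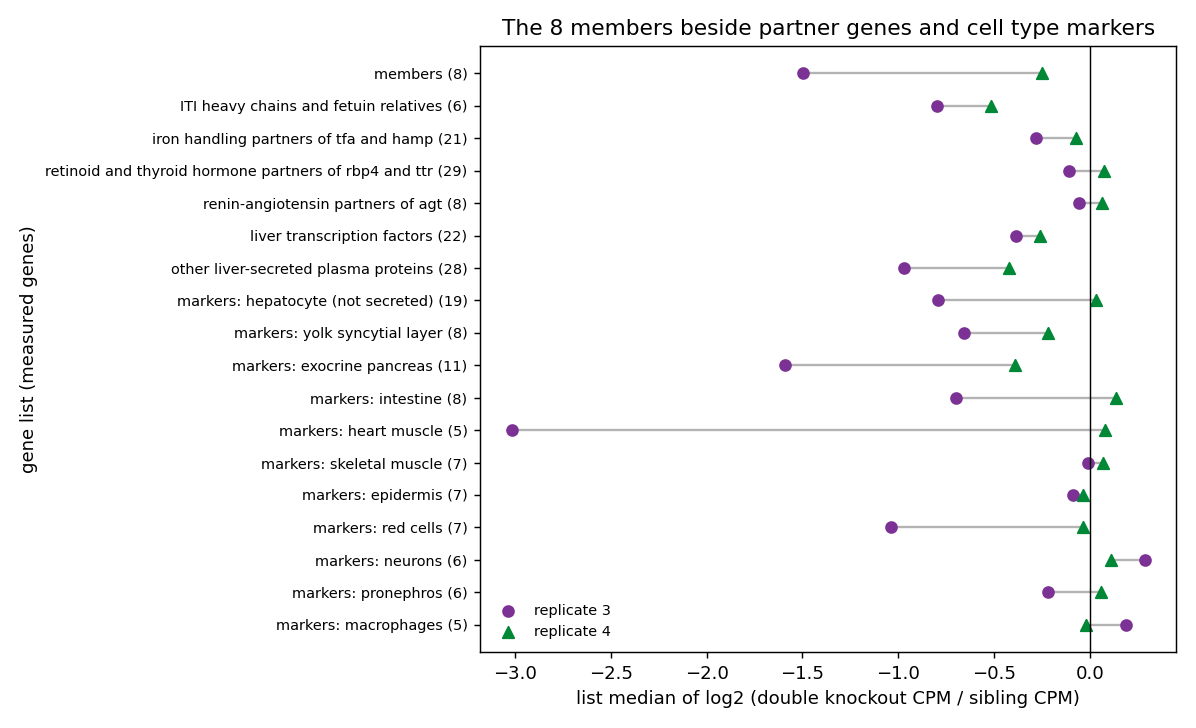
Median log2 of double knockout over sibling CPM of each gene list, between the replicate 3 libraries (purple circles) and the replicate 4 libraries (green triangles), with the number of measured genes in brackets. The 8 genes are at -1.50 and -0.25, hepatocyte markers at -0.79 and 0.03, and retinoid and renin-angiotensin partners near 0 in both.

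Among 15527 other named Ensembl genes with a mean of at least 2 CPM, those with the course over the 4 libraries nearest to the mean of the 8 genes were nupr1b, si:ch73-119p20.1, mthfd1a, zgc:162608 and si:dkey-105h12.2, at distances of 0.12 to 0.248 in centred log2 CPM against a median of 1.31. The stress-responsive gene nupr1b was at 19.4 and 38.9 CPM in double knockout replicates 3 and 4 and 55.9 and 46.3 CPM in siblings. For single members the nearest genes were serping1 for tfa (distance 0.0922), f2, the prothrombin gene, for ambp (0.0375), igfbp1b for ahsg1 (0.527) and fkbp11 for fetub (0.186). For ttr it was shbg (0.61), for agt loxl5b (0.0655), for hamp si:ch73-119p20.1 (0.0983) and for rbp4 wu:fc75a09 (0.0448). With 4 libraries such nearness is a description only.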

How the data were processed

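Poly(A) RNA of 4 zebrafish libraries was sequenced. Per the submitters' processing notes, HISAT2 2.2.1, DESeq2 1.26.0 and GRCz11 were used. Which programs counted reads and assembled transcripts, the annotation release and the strand setting: not given in the sources used here. As named per the file headers, the deposited table gives raw read counts and FPKM per library, and the authors' own log2 fold change and p-value columns, which run as mutant over sibling when set against the counts. The highest count of any feature over the libraries was at least 26, so rarer features were not analysed here.

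Counts were tested as deposited with edgeR 4.0.16 in R 4.3.3 (quasi-likelihood, TMM, filterByExpr, which removed no feature), without a covariate, and with genotype as a second term for replicate number. The test was checked on simulated data. Libraries of a group were not copies (chi-square per degree of freedom 77.7 between double knockouts and 90.1 between siblings). Titles gave each library its group and replicate number. Alternatives were other scalings and filters, DESeq2 1.42.0, limma 3.58.1 on log2(FPKM + 1), the replicate number as a block, the 20 most abundant features left out, and each library left out.

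The 8 genes, the lists and the tests were chosen with earlier results of these data known. All 8 genes are named, with up to 4 genes of each partner list by highest mean CPM (1 such gene is not reported here) and the genes of nearest course. Nearness is the Euclidean distance of log2 CPM (prior count 2) centred per gene. Single markers named in the text, and features outside these rules, were picked with their values in view. Symbols are those of the deposited table, and the identifiers of all 8 genes matched a reference table of names. A planned search for motifs in promoters was not run, because no promoter sequence was used here.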

Additional observations from a re-analysis of the deposited data

How the results depend on the processing

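Between genotypes, all 8 fold changes stayed below 0 and uncalled under every alternative that gave a value (for ahsg1, ttr and hamp none at a minimum of 5 CPM in 2 libraries). These alternatives reuse the same libraries, so their shared sign is no independent support. Between the replicate 4 libraries alone ttr, agt and hamp were above 0, at 0.57, 0.22 and 0.15. Over all features edgeR called 0, DESeq2 19 and the fit with the replicate block 3, none of them a member. At an unadjusted p below 0.05 edgeR listed 100 features without the block and 878 with it. The biological coefficient of variation from edgeR was 32.63% without the block and 15.41% with it. With the replicate block the adjusted p was 0.47 for tfa, 0.658 for fetub, 0.835 for ambp and 0.855 for ahsg1, and 0.977 for the others, and it changed no call of a member. Deviations from the group means of libraries with the same number correlated at 0.619. With 2 libraries per group both pairs give this same value, and its sign turns with the pairing. It therefore cannot show that libraries with the same number shared a batch. The main test has no covariate and leaves the difference between replicate numbers in its spread. The labels do not say what the numbers mark, and the source of the difference was not tested. With 1 library left out the values ranged from -2.00 to -1.38 for ahsg1, -1.48 to -0.70 for fetub, -1.12 to -0.25 for tfa (highest without sibling replicate 4), -1.26 to -0.23 for ambp, -4.01 to -0.24 for ttr, -0.52 to -0.04 for rbp4, -1.44 to -0.10 for agt and -1.41 to -0.02 for hamp, and from -1.42 to -0.28 for their median. Counts of members and of all features called were 0 each time. The count of members without overlap was 3 on TMM CPM, on library totals and on FPKM (the last 2 chosen after seeing the data), but with ambp in place of rbp4 on the last 2. Between replicate numbers, rbp4 was called by limma on log2(FPKM + 1) at -0.44 (adjusted p = 0.0319); the cause was not tested. Of the features called there, 46.2% were higher in replicate 4, against 35.2% with total counts and 31.7% on FPKM. The low counts of ahsg1, ttr and hamp limit their precision.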

Other observations

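The course of ttr, over 8-fold lower in double knockout than in sibling replicate 3 and within 2-fold between the replicate 4 libraries, was shared by 13 other Ensembl genes with a mean of at least 2 CPM, under a rule chosen after the data were seen. They include the hepatocyte genes fabp10a, uox, hpda and abcb11b of the marker list, and 2 genes outside it whose products are known from the liver. shbg, which codes for the plasma carrier of sex steroids, was at 0.463 and 3.22 CPM in double knockout replicates 3 and 4 and 5.23 and 2.73 CPM in siblings. asgrl2, related to the asialoglycoprotein receptor, was at 0.347 and 2.84 CPM in double knockouts and 3 and 2.86 CPM in siblings. abcb11b, si:ch211-288g17.4 and si:ch211-222k6.3 met the rule with 0 counts in double knockout replicate 3. ttr itself, with a mean of 1.87 CPM, lay below the limit of 2 CPM. Of all 19924 features, 65 were over 8-fold lower in double knockout than in sibling replicate 3.

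The 13 genes also hold cartilage genes and heart muscle genes that were already low in sibling replicate 3. The collagen gene col10a1a was read at 11 and 1989 counts in double knockout replicates 3 and 4 and at 149 and 2126 counts in siblings, and the heart myosin gene myl7 at 2 and 711 counts in double knockouts and 18 and 611 counts in siblings. fabp10a, shbg and abcb11b were instead higher in replicate 3 than in replicate 4 of siblings. The other liver genes named above did not share this. In sibling replicates 3 and 4, uox was at 16.8 and 21 CPM, hpda at 9.79 and 10.6 CPM and asgrl2 at 3 and 2.86 CPM.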
